A study of Mus musculus with 8 samples.

Results

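The AP-1 transcription factors were examined through the 7 genes that encode the FOS and JUN proteins, *Fos*, *Fosb*, *Fosl1*, *Fosl2*, *Jun*, *Junb* and *Jund*. The genes were chosen by name from the 45706 genes of the deposited tables, and all 7 passed the filter on low counts, which left 17495 genes. They were measured by RNA-seq of ribosome-associated mRNA from PV+ interneurons, fast-spiking inhibitory cells of the cortex that contain the calcium-binding protein parvalbumin. All mice carried the alleles PvalbFlp/+;Neurod6Cre/+ and received an adeno-associated virus (AAV), switched on by Flp and off by Cre, in the primary somatosensory cortex (S1). The sample records give injection at postnatal day 1 (P1), and the study's methods give a short range of days that starts at P1. The virus encodes HA-tagged RPL10a, a ribosomal protein used to pull down ribosomes, together with myc-tagged hM3Dq, a receptor that raises neuronal activity when its ligand clozapine-N-oxide (CNO) is given. At P42 to P70, mice received CNO (1 mg/kg, 4 samples) or vehicle (4 samples) in 5 injections over about 48 h, the last on the morning of the experiment. One sample combines the cortical tissue of 4 mice. Both groups carried the receptor, so that the comparison is between CNO and vehicle in hM3Dq-expressing cells, and no group without the receptor was analysed here. Expression of the construct depends on the synapsin promoter, on Flp from the *Pvalb* locus and on the absence of Cre, which is driven by *Neurod6* in pyramidal cells. The time from the last injection to the dissection is not given in the sources used here.

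AP-1 is a dimer. FOS proteins (FOS, FOSB, FOSL1 and FOSL2) do not pair with each other and bind DNA together with a JUN protein (JUN, JUNB or JUND), whereas JUN proteins can also pair among themselves, and both pair with other leucine zipper proteins such as ATF3. In neurons, calcium entry starts transcription of *Fos* within minutes through cyclic AMP response elements (CRE) and a serum response element in its promoter, and the mRNA is short-lived, so that *Fos* is widely used as a sign of recent activity. *Jund* is transcribed without stimulation in most cells. *Fosb* also yields a shortened, long-lived protein, ΔFOSB, through alternative splicing, which gene-level counts cannot separate from the full-length form.

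The promoters of 6 of the 7 genes were found in the RefSeq table on GRCm38.p6, and *Fosl1* was not matched. The 250 bases before the start are shown for *Fos* and *Fosb*, which differed most between the groups. Those of *Jun* and *Junb*, 2 partners that are also known as early genes, are shown as well. Whether these stretches take part in the difference between CNO and vehicle was not tested. Capitals mark matches to any of the motifs searched on both strands.
Fos (chr12:85473640-85473889, plus strand): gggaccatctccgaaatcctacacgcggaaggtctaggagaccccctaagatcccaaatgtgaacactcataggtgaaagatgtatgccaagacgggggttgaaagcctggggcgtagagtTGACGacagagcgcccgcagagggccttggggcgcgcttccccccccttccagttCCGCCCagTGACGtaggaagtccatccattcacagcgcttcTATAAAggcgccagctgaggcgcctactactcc
Fosb (chr7:19310046-19310295, minus strand): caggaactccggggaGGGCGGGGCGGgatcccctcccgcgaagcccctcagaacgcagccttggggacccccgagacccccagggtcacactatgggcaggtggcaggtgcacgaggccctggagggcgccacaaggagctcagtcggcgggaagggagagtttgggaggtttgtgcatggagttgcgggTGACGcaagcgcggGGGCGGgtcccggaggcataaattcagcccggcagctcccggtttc
Jun (chr4:95052223-95052472, minus strand): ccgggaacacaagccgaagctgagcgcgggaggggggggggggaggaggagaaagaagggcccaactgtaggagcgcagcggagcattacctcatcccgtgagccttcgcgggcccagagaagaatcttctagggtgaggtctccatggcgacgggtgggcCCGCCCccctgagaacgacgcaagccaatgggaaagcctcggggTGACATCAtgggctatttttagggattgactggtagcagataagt
Junb (chr8:84978749-84978998, minus strand): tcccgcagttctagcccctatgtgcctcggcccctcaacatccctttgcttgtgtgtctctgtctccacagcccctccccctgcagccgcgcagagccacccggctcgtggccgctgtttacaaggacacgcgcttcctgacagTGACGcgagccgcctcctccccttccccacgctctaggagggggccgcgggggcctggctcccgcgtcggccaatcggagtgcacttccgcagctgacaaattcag

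The full CRE, TGACGTCA, was in none of the 6 windows and is in 1.55% of all 32851 promoter windows of this length. Its core TGACG, which the full CRE contains, was in 3 of the 6 windows, *Fos* (from -129 and from -66, counted from the start), *Fosb* (from -60) and *Junb* (from -106), against 17.8% of all windows. The window of *Fos* also held TATAAA from -33 to -28, found in 12.4% of all windows on either strand. GGGCGG, the GC box, was in *Fos*, *Fosb*, *Fosl2* and *Jun* and in 32.7% of all windows. TGACTCA, the site AP-1 itself binds, which read on the other strand is TGAGTCA, was in none of the 6 and in 4.46% of all windows. The CArG box, the letters bound by serum response factor, was likewise in none of the 6 and in 1.47% of all windows. Bases further than 250 before the start were not searched. Absence from a window is therefore not absence from the promoter, and it does not bear on the serum response element of *Fos* named above. TGACATCA, a variant site known from the *Jun* promoter that was added after the sequences were seen, lay at -45 to -38 of *Jun* and is in 2.93% of all windows. For *Fosl2* and *Jund* the RefSeq start differs by 671 and 1210 bases from that of GENCODE, so that their windows may not be the promoter in use.

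The 8 libraries held between 44064161 and 49413273 counts, so that 3 counts, the floor of detection, corresponded to 0.0607 to 0.0681 CPM (read counts scaled to library size) and cover counting error only. The lowest value of any member in any sample, 0.962 CPM of *Fosb* in vehicle replicate 1, lay above this floor. The pulldown was checked against markers of PV+ interneurons and of other cells, from lists of which no gene was at 0. The 10 PV+ interneuron markers, led by *Gad1*, summed to 3506, 2526, 3069 and 3963 TPM in CNO replicates 1 to 4. In vehicle replicates 1 to 4 they summed to 1202, 2877, 3151 and 2962 TPM. TPM is a level per transcript length. Some of the 10, such as *Gad1* and *Gad2*, are also expressed in other inhibitory neurons, so that the sum is not particular to PV+ interneurons. *Pvalb* alone was at 1022, 820, 977 and 1160 TPM with CNO and at 300, 988, 1050 and 943 TPM with vehicle. Vehicle replicate 1 stood below the other 7 samples. Pyramidal cell markers were present in all samples, at 1580, 1921, 1676 and 1393 TPM with CNO and 2238, 2121, 1578 and 1674 TPM with vehicle, summed over 10 genes led by *Nrgn*, although the viral design is meant to leave these cells out. Fewer cells of a type and less RNA per cell cannot be told apart in these pooled samples.

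To ask which AP-1 genes differ when PV+ interneurons are activated for 48 h, CNO was compared with vehicle across all genes by edgeR's quasi-likelihood test on TMM-normalized counts. *Fos* and *Fosb* were 3.82-fold and 3.68-fold higher with CNO and *Fosl2* 1.61-fold higher, the interval of *Jun* reached no further than 1.15-fold, and the intervals of *Junb*, *Jund* and *Fosl1* included no change, with *Fosl1* the one member whose estimate was lower with CNO. At an unadjusted p under 0.05, 3 of the 7 genes were higher and 0 lower, where 1.44% of all genes tested were higher, 2.65% lower and 4.09% either. In the same 3 genes all CNO samples lay above all vehicle samples, against 0.789% of all genes, or 2.42% separated in either direction. These 3 genes were also the ones more than 1.5-fold higher, as were 1.34% of all genes. A gene was called when its mean exceeded 1 TPM, its change exceeded 1.5-fold and its adjusted p was under 0.05, and the quasi-likelihood test called 0 of the 7 genes and 0% of all genes. DESeq2's Wald test and edgeR's likelihood ratio test with robust dispersion each called 2 of the 7, *Fos* and *Fosb*, with 0.0572% and 0.0686% of all genes called, or 0.0514% and 0.0629% called higher. The median log2 fold change of the 7 genes was 0.28, and that of all genes 0.0014.

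**Figure D1:**
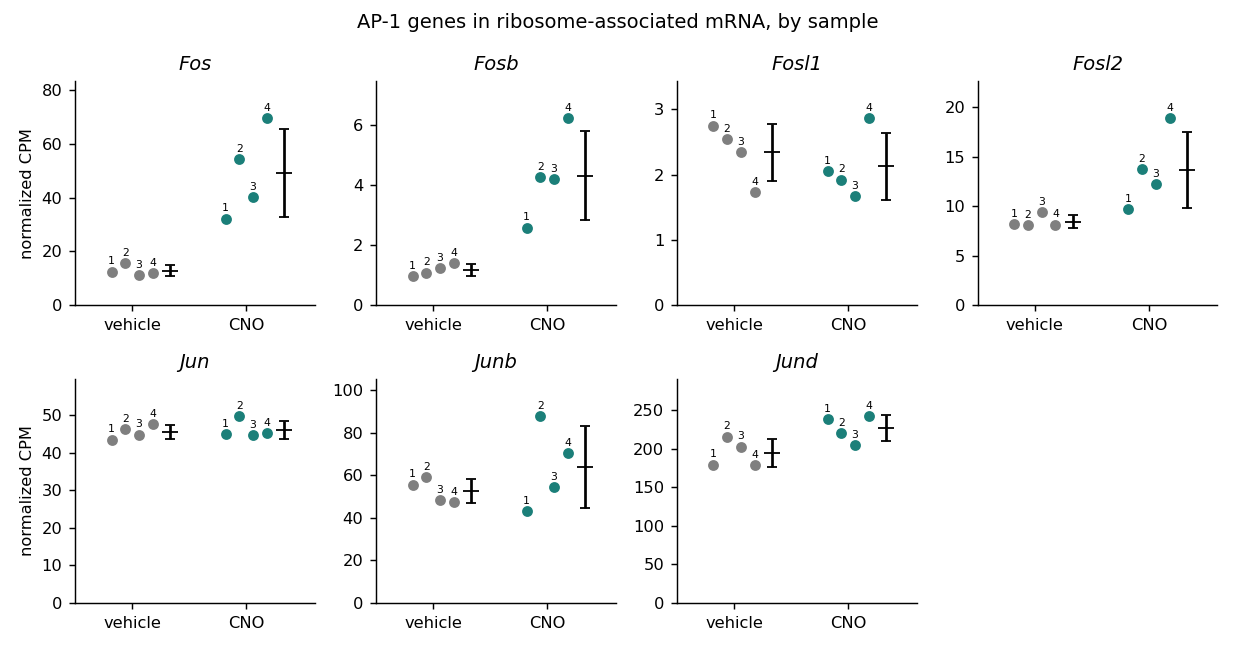
Normalized CPM (y axis, from 0) of each AP-1 gene in the 4 vehicle (grey) and 4 CNO (teal) samples, with replicate numbers beside the points and the mean ± SD of each group in black. The groups separate for *Fos*, *Fosb* and *Fosl2* and overlap for the other genes.

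*Fos* (ENSMUSG00000021250), the gene most used to mark active neurons, lies on chromosome 12 of GRCm38 from 85473890 to 85477273, with 4 exons. It was at 32.2, 54.4, 40.3 and 69.5 normalized CPM in CNO replicates 1 to 4 and at 12.5, 15.8, 11.3 and 11.8 in vehicle replicates 1 to 4. Each CNO sample was above each vehicle sample, and the CNO values were 2.50 to 5.40 times the vehicle mean. The SD was 33.4% of the mean in the CNO samples (n = 4) and 15.7% in the vehicle samples (n = 4). Whether the spread differs between the groups was not tested. The fold change was 3.82 (95% interval 2.76 to 5.29; log2 1.93, standard error 0.21), which ranked first by p among all genes and second by size among those higher with CNO (adjusted p = 0.0520 from edgeR's quasi-likelihood test).

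*Fos* was read beside the PV+ interneuron markers of each sample. CNO replicate 2 had the lowest marker sum of the CNO samples, 2526 TPM, and the second highest *Fos* level. Vehicle replicate 1 had less than any other sample of these markers and 12.5 CPM of *Fos*, within the range of the other vehicle samples. CNO replicate 4 was highest in both. With an index of PV+ interneuron minus pyramidal cell markers in the model, the log2 fold change of *Fos* was 1.90 (standard error 0.23), and without vehicle replicate 1 it was 1.92. The same index gave 1.70 for *Fosb*, 0.60 for *Fosl2* and 0.17 for *Jund*, against 1.88, 0.69 and 0.22 without it. It gave 0.39 for *Junb*, -0.12 for *Fosl1* and 0.018 for *Jun*, against 0.28, -0.14 and 0.019. Whether PV+ interneuron content contributes to the AP-1 differences was not tested further.

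**Figure D2:**
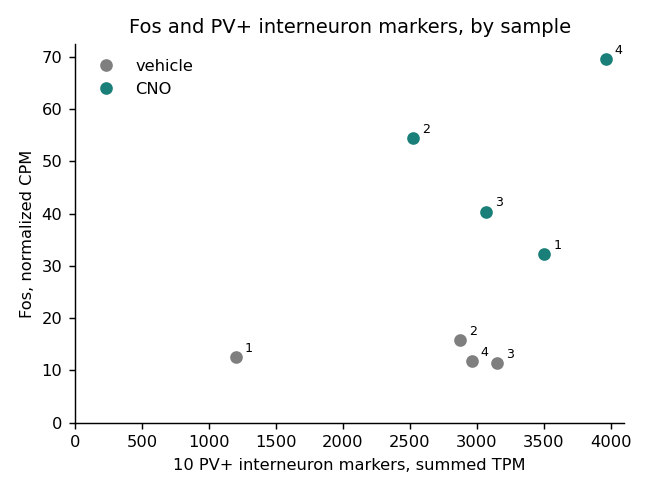
*Fos* (y axis, normalized CPM) against the summed level of 10 PV+ interneuron markers (x axis, TPM) in each sample, both axes from 0, with replicate numbers. Vehicle replicate 1 stands apart at 1202 TPM of markers with a *Fos* level like that of the other vehicle samples, and all CNO samples lie above 32 CPM.

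*Fosb* (ENSMUSG00000003545; chromosome 7, 19302696 to 19310051, 4 exons) encodes the FOS protein best known from repeated stimulation. It was at 2.59, 4.27, 4.20 and 6.23 normalized CPM with CNO and at 0.962, 1.09, 1.23 and 1.41 with vehicle. The groups did not overlap, and CNO replicates 1 and 4 were again the lowest and the highest of their group. The fold change was 3.68 (95% interval 2.47 to 5.46; log2 1.88, standard error 0.26; adjusted p = 0.123 from edgeR's quasi-likelihood test), the fourth largest among genes higher with CNO. On 43 to 70 estimated reads per vehicle sample, *Fosb* rests on fewer counts than *Fos*, with 546 to 740.

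*Fosl2* (ENSMUSG00000029135; chromosome 5, 32135801 to 32157842, 4 exons) encodes FRA2, which lacks the strong activation domain of FOS. It was at 9.71, 13.7, 12.2 and 18.8 normalized CPM with CNO and at 8.21, 8.07, 9.37 and 8.13 with vehicle. The lowest CNO sample, replicate 1, was only just above the highest vehicle sample, replicate 3. The fold change was 1.61 (95% interval 1.23 to 2.12; log2 0.69, standard error 0.18; adjusted p = 0.817 from edgeR's quasi-likelihood test).

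*Fosl1* (ENSMUSG00000024912; chromosome 19, 5447547 to 5455946, 4 exons) encodes FRA1, a protein known mainly from growing and migrating cells. It was at 2.06, 1.92, 1.67 and 2.86 normalized CPM with CNO and at 2.75, 2.54, 2.35 and 1.74 with vehicle. The groups overlapped fully, and the fold change was 0.909 (95% interval 0.648 to 1.27; adjusted p = 0.871 from edgeR's quasi-likelihood test). *Ccdc85b*, a gene on the opposite strand, overlaps *Fosl1* in the annotation, and 54.5% of the 31-base stretches of *Fosl1* transcripts occur in it. *Ccdc85b* carried 2120 to 3721 reads per sample, at a mean of 344 TPM, against 78.0 to 136 reads for *Fosl1*. No strand setting is given for the counting, so that reads of the 2 genes may not be told apart and the level of *Fosl1* is uncertain.

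The JUN genes each have a single exon and lie on chromosomes 4 (*Jun*, ENSMUSG00000052684, 95049034 to 95052222) and 8 (*Junb*, ENSMUSG00000052837, 84974484 to 84978718; *Jund*, ENSMUSG00000071076, 70698949 to 70700616). *Jun* encodes the strongest activator among them. It was at 45.0, 49.7, 44.6 and 45.1 normalized CPM with CNO and at 43.4, 46.2, 44.8 and 47.5 with vehicle. All 8 samples lay within a narrow band, with an SD of 5.20% of the mean with CNO and 3.92% with vehicle. The fold change was 1.01 (95% interval 0.897 to 1.15; adjusted p = 0.952 from edgeR's quasi-likelihood test), an interval that ends below the lower bound of *Fos*, 2.76. *Junos*, an antisense gene that shares 6.39% of the stretches of *Jun*, had at most 26.3 estimated reads in any sample.

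*Junb* encodes a JUN protein that can oppose JUN at some targets and is itself an early gene in many neurons. It was at 43.2, 87.7, 54.3 and 70.3 normalized CPM with CNO and at 55.5, 59.2, 48.1 and 47.4 with vehicle. The CNO samples spread around the vehicle samples, with CNO replicate 1 the lowest of all 8 and CNO replicate 2 the highest. The fold change was 1.22 (95% interval 0.910 to 1.62; adjusted p = 0.817 from edgeR's quasi-likelihood test; exact permutation p = 0.371, two-sided). Without CNO replicate 2 its log2 fold change was 0.090, and without CNO replicate 1 it was 0.43, against 0.28 in all samples. *Prdx2*, a gene on the opposite strand, shares 6.52% of the 31-base stretches of *Junb*, carried 3909 to 10916 estimated reads per sample against 2039 to 4153 for *Junb*, and had a log2 fold change of 0.28 (0.23), so that some reads of *Junb* may not be told apart from those of *Prdx2*.

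*Jund* encodes the JUN protein present in resting cells. It was at 238.9, 220.7, 205.1 and 242.4 normalized CPM with CNO and at 179.6, 215.7, 202.8 and 179.1 with vehicle. The CNO mean was higher, but CNO replicate 3 was below vehicle replicate 2. The fold change was 1.17 (95% interval 0.993 to 1.37; adjusted p = 0.817 from edgeR's quasi-likelihood test; exact permutation p = 0.0571, two-sided). An antisense gene, *Gm11175*, covers 50.1% of the 31-base stretches of *Jund* but had at most 27.0 estimated reads in any sample, against 8030 or more for *Jund*. Two-sided exact permutation tests gave p = 0.0286 for *Fos*, *Fosb* and *Fosl2*, the smallest value that 4 samples against 4 allow, p = 0.514 for *Fosl1* and p = 0.686 for *Jun*.

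**Figure D3:**
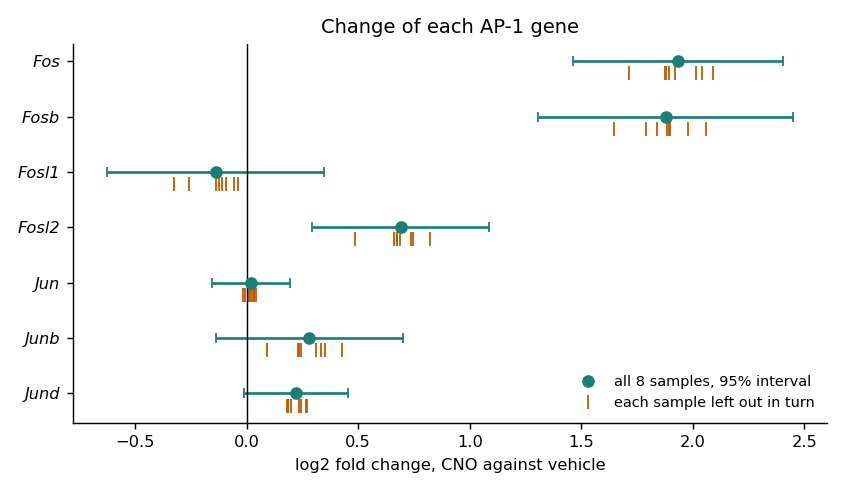
Log2 fold change of each AP-1 gene, CNO against vehicle (x axis), with its 95% interval from all 8 samples (teal) and the values with each sample left out in turn (orange ticks). *Fos* and *Fosb* stay at 1.64 or more in every such fit, *Fosl2* at 0.49 or more, and *Jun* stays next to 0.

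The replicates fall into no batch that the labels name. Taken apart by number, the difference in mean log2 CPM of *Fos* was 1.57 in replicates 1 and 2 and 2.19 in replicates 3 and 4. That of *Fosb* was 1.66 and 1.92, and that of *Fosl2* 0.50 and 0.80. *Junb* differed by 0.10 and 0.37, and *Jund* by 0.22 and 0.23. The signs of *Fosl1* (-0.40 and 0.11) and *Jun* (0.077 and -0.040) differed between these pairs of replicates. Among the CNO samples *Fos*, *Fosb* and *Fosl2* had the same order, with replicate 4 highest, followed by replicates 2, 3 and 1. Among the vehicle samples their orders differed, with *Fos* highest in replicate 2, *Fosb* in replicate 4 and *Fosl2* in replicate 3.

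Per transcript length, the family was dominated by the JUN genes. In vehicle samples the order of mean TPM was *Jund* (160.1 ± 11.9, SD, n = 4), *Junb* (70.9 ± 9.20), *Jun* (33.7 ± 1.51), *Fos* (17.04 ± 2.97), *Fosl1* (3.44 ± 0.714), *Fosl2* (3.16 ± 0.198) and *Fosb* (0.728 ± 0.109). Among neighbours in this order, the ranges of *Fosl1* and *Fosl2* alone overlapped. With CNO the order was *Jund* (178 ± 12.8), *Junb* (82.4 ± 28.2), *Fos* (61.2 ± 21.0), *Jun* (32.6 ± 3.33), *Fosl2* (4.75 ± 1.13), *Fosl1* (2.95 ± 0.636) and *Fosb* (2.55 ± 0.828). *Fos* thus stood above *Jun* in mean TPM with CNO and below it with vehicle, although its range with CNO overlapped those of both *Junb* and *Jun*. The remaining neighbours whose ranges overlapped were *Fosl2* with *Fosl1* and *Fosl1* with *Fosb*.

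FOS genes together made up 14.1, 19.6, 18.9 and 24.5% of the summed TPM of the 7 genes in CNO replicates 1 to 4 and 8.87, 8.79, 7.72 and 8.27% in vehicle replicates 1 to 4. The shares did not overlap between the groups. The JUN genes summed to 6.07, 4.11, 4.29 and 3.08 times the TPM of the FOS genes with CNO and to 10.3, 10.4, 11.9 and 11.1 times with vehicle. The JUN mRNA thus exceeded the FOS mRNA in all 8 samples. The JUN sum itself was 293 ± 37.4 TPM with CNO and 265 ± 18.7 TPM with vehicle (SD, n = 4), and the FOS sum 71.4 ± 23.4 and 24.4 ± 3.16 TPM. *Fos* was 16.5 ± 3.90% of the family with CNO and 5.87 ± 0.629% with vehicle, and *Fosb* was under 1% in every sample. These shares describe mRNA on ribosomes and not protein.

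**Figure D4:**
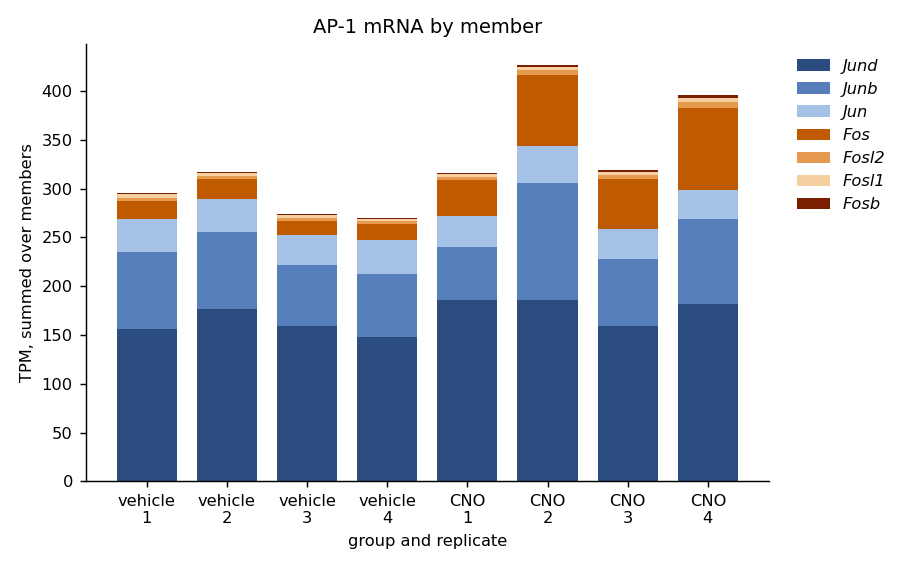
TPM of the 7 AP-1 genes stacked per sample (y axis, summed TPM, from 0), with JUN genes in blue and FOS genes in orange and brown. The FOS part grows from 7.72 to 8.87% of the stack in vehicle samples to 14.1 to 24.5% in CNO samples, while *Jund* is the largest part in all 8.

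The mRNAs of the family also differ in a feature of their 3′ ends that the choice of genes did not use. ATTTA, the core of the AU-rich elements through which early mRNAs are degraded, occurred 8 times in the longest annotated 3′ untranslated region of *Fosl2*, 4 times in those of *Fos* and *Jun*, 2 times in that of *Junb*, and once in those of *Fosb*, *Fosl1* and *Jund*. Among 21037 coding genes, 28.0% have at least 4 copies and 10.5% at least 8. *Fos* and *Jun* have the same number of copies. Decay of the mRNAs was not measured, and whether these copies bear on the differences between CNO and vehicle was not tested. The region of *Fosl2* is 4653 bases long and that of *Fos* 815, so that the counts are not per length. Of 6 genes for proteins that bind such elements, 0 had an unadjusted p under 0.05, where 4.09% of all genes did, so that none is expected in a list of this size. *Zfp36*, whose protein starts the decay of AU-rich mRNAs, was at -0.28 on the log2 scale (standard error 0.24). The most abundant of the 6 by TPM were *Hnrnpd*, at 0.074 (0.091), and *Elavl1*, whose protein stabilizes such mRNAs, at 0.070 (0.11).

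Of 12 other leucine zipper genes whose proteins pair with FOS or JUN, 11 were tested, with 7 higher and 4 lower with CNO. An unadjusted p under 0.05 was reached by 2, both higher (1.44% of all genes), with a median log2 fold change of 0.072 over the list. *Atf3*, a stress-induced partner of JUN, was at 1.19, 0.824, 1.09 and 2.06 normalized CPM with CNO and at 0.179, 0.278, 0.561 and 0.504 with vehicle. The groups did not overlap (log2 fold change 1.75, standard error 0.40, adjusted p = 0.817 from edgeR's quasi-likelihood test). The likelihood ratio test with robust dispersion gave adjusted p = 0.0230 for *Atf3*, but its mean of 0.988 TPM was below the cut-off of 1 TPM. *Maff*, which encodes a small MAF protein, was at 0.509, 0.909, 0.642 and 0.778 normalized CPM with CNO and at 0.425, 0.342, 0.457 and 0.424 with vehicle, again without overlap (log2 fold change 0.78, standard error 0.27; adjusted p = 0.817). The 2 most abundant partners, *Jdp2*, whose protein represses AP-1 targets, and *Mafg*, another small MAF gene, had log2 fold changes of -0.035 (standard error 0.11) and 0.012 (0.092).

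Genes of the route from calcium to the *Fos* promoter and of the kinases that phosphorylate JUN were read against the 4.09% of all genes with an unadjusted p under 0.05, a share at which few or none are expected in lists of this size. Of 21 genes of the first list, which holds CREB and serum response factors, their coactivators and the MAP kinases, 0 had an unadjusted p under 0.05 in either direction, 7 were higher and 14 lower, and the log2 fold changes ran from -0.18 to 0.23 with a median of -0.032. In *Crem*, a CREB relative with the largest value of the list (0.23, standard error 0.11), the CNO samples lay above all vehicle samples, though CNO replicate 2 and vehicle replicate 2 nearly met. *Map2k2*, an abundant member that encodes a kinase of the MAP kinase cascade, was at 0.044 (0.095). Of 10 genes of the JUN kinase route, 0 had an unadjusted p under 0.05, with a median of 0.099. *Fbxw7*, which encodes a ubiquitin ligase that marks JUN for destruction, was at -0.061 (0.12), and *Mapk10*, the JUN kinase gene most particular to neurons, at 0.080 (0.14). Activation of these proteins by phosphorylation is not visible in mRNA.

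Of 19 genes described elsewhere as targets of AP-1, 14 were tested, 2 were higher and 1 was lower at an unadjusted p under 0.05 (1.44% and 2.65% of all genes), and the median log2 fold change was 0.13. *Th*, which encodes tyrosine hydroxylase and has an AP-1 site in its promoter, was at 6.04, 5.85, 5.997 and 9.68 normalized CPM with CNO and at 1.63, 2.24, 2.74 and 1.76 with vehicle. *Th* was higher in every CNO sample than in any vehicle sample (log2 fold change 1.72, standard error 0.22, adjusted p = 0.105 from edgeR's quasi-likelihood test). Its adjusted p was 2.96e-08 from edgeR's likelihood ratio test with robust dispersion. That test called 1 gene of this list and 0.0686% of all genes. For *Scg2*, which encodes secretogranin II, the log2 fold change was 0.63 (standard error 0.22), with overlapping groups. *Penk*, which encodes proenkephalin, went the other way, at 14.5, 18.9, 21.2 and 29.5 normalized CPM with CNO and 31.6, 23.7, 38.9 and 40.4 with vehicle. Its groups overlapped (log2 fold change -0.68, standard error 0.22; adjusted p = 0.817; exact permutation p = 0.0571, two-sided). The most abundant targets by TPM were *Gria2*, a glutamate receptor gene, at -0.28 (0.17), and *Cdk5*, a neuronal kinase gene, at 0.27 (0.15), both known for their link to ΔFOSB. *Nts*, *Timp1*, *Mmp3*, *Mmp13* and *Plau* did not pass the filter on low counts.

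Of 21 other early genes, 4 were higher and 0 lower at an unadjusted p under 0.05 (1.44% and 2.65% of all genes), *Dusp1*, *Nr4a1*, *Trib1* and *Per1*, with a median log2 fold change of 0.28 over the list. *Dusp1*, which encodes a phosphatase that inactivates MAP kinases, was at 91.3, 96.3, 93.4 and 142.9 normalized CPM with CNO and at 33.8, 47.2, 58.2 and 49.6 with vehicle. Its groups did not overlap, and its log2 difference was 1.17 (standard error 0.18, adjusted p = 0.239 from edgeR's quasi-likelihood test). With robust dispersion and the likelihood ratio test its adjusted p was 2.62e-07. That test called 1 gene of this list and 0.0686% of all genes. *Nr4a1*, an orphan nuclear receptor gene, was at 0.68 (0.21), with CNO replicate 1 among the vehicle samples. *Trib1*, a pseudokinase gene, was at 0.44 (0.13) and *Per1*, a clock gene that CREB can induce, at 0.31 (0.12). The most abundant of these early genes by TPM, *Egr1*, a zinc finger transcription factor gene, was at 0.072 (0.18), and *Homer1*, a postsynaptic scaffold gene, at -0.092 (0.097).

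**Figure D5:**
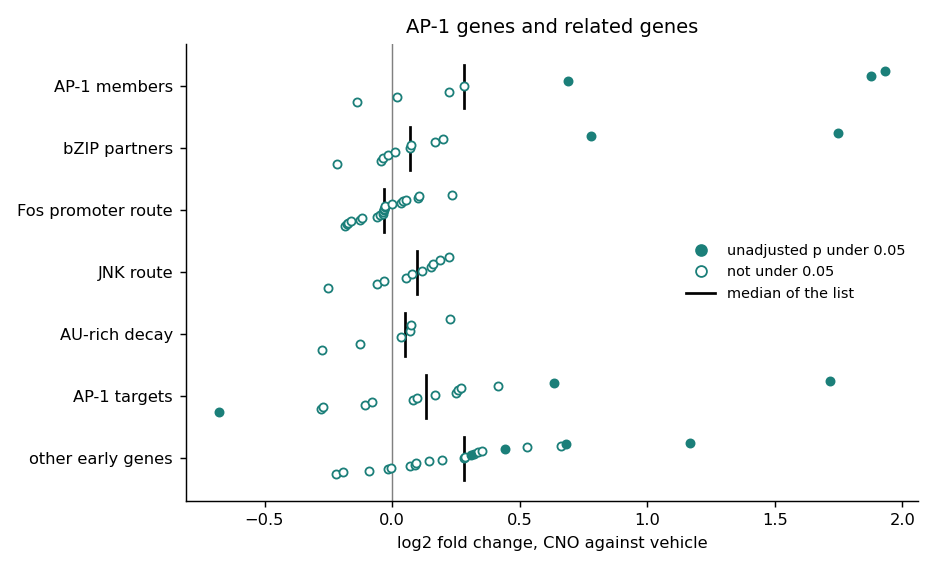
Log2 fold change, CNO against vehicle (x axis), of each tested gene in 7 lists (rows), filled where the unadjusted p of edgeR's quasi-likelihood test is under 0.05, with the median of each list as a black bar. The filled points beyond 1 are *Fos*, *Fosb*, *Atf3*, *Th* and *Dusp1*, and no point is filled in the lists of the *Fos* promoter route, the JUN kinase route and AU-rich decay.

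Each gene was scaled to a mean of 0 and an SD of 1 over the 8 samples, and genes were compared by their root mean square difference, in which the difference between CNO and vehicle weighs heavily. Outside the AP-1 family, the genes whose pattern was most like that of *Fos* were *Btg1* (0.195), *Th* (0.311), *Fam150b* (0.331), *Gm7008* (0.342) and *Smyd4* (0.344), of 15166 genes with a mean above 1 TPM, whose median was 1.31. The 7 members were left out of this ranking, and *Fosb*, at 0.246, would come second in it. Likeness of pattern did not mean likeness of size. *Btg1*, which encodes an antiproliferative protein, was at 47.2 to 50.8 normalized CPM with CNO and 40.3 to 42.3 with vehicle, which is 0.22 on the log2 scale (standard error 0.075), whereas *Fam150b*, which encodes a ligand of the receptor ALK, reached 1.42 (0.23). The genes most like *Jun* were *Dusp8*, *Pik3c2b*, *Sap25*, *Rusc1* and *Map1a*, at differences from 0.248 to 0.363, with log2 fold changes from -0.10 to 0.11.

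Markers of other cells were read beside these results. PV+ interneuron markers had a median log2 fold change of 0.43, with 10 of 10 genes higher, as were 8810 of all 17495 genes. *Gad2*, which other inhibitory neurons also express, was the 1 marker of the 10 higher at an unadjusted p under 0.05 (1.44% of all genes). *Pvalb* itself was at 0.34 (standard error 0.33). Pyramidal cell markers had a median of -0.13, with *Slc17a7*, the vesicular glutamate transporter gene, at -0.20 (0.12). Markers of blood vessel cells had a median of 0.37 and summed to 21.9, 55.9, 63.4 and 45.5 TPM in CNO replicates 1 to 4 and to 35.9, 33.1, 49.03 and 43.5 TPM in vehicle replicates 1 to 4, with *Cldn5* the most abundant, and the groups overlapped. Those of microglia had a median of -0.24, and summed to 36.7, 55.5, 39.7 and 34.3 TPM with CNO and to 68.3, 49.7, 49.6 and 44.3 TPM with vehicle. *P2ry12*, the most abundant of them, was at -0.38 (0.17) and the 1 of 5 that was lower at an unadjusted p under 0.05 (2.65% of all genes), and *Cx3cr1*, a defining receptor gene, at -0.19 (0.18). The median was -0.089 for astrocyte markers, of which 2 were higher, the most abundant *Aldoc* (0.098) and *Gfap* (0.14), and 4 lower, -0.23 for oligodendrocyte markers, with *Mbp* at -0.052, and -0.035 for markers of SST+ and VIP+ interneurons, led by *Cck* (-0.18) with *Sst* at 0.12. Beyond the fits with the index of PV+ interneuron minus pyramidal cell markers, the part of these cells in the AP-1 values was not tested.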

How the data were processed

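Ribosome-associated mRNA was sequenced in 4 CNO and 4 vehicle samples, grouped by their titles. For quantification the authors used Trim Galore, STAR, Salmon and tximport, on GRCm38/mm10 (versions not given in the sources used here). The authors deposited estimated counts per gene, not normalized, and TPM, which are scaled per transcript length. Counts were rounded, a gene was dropped if 4 or more samples fell below 10 counts, and CNO was compared with vehicle in edgeR 4.0.16 (R 4.3.3) with TMM normalization, the quasi-likelihood test and Benjamini-Hochberg adjustment over 17495 genes. The study names edgeR's robust dispersions and a Wald test. Robust dispersions with the likelihood ratio test were an alternative here, as were DESeq2 1.42.0 (Wald test) and limma 3.58.1. Intervals are 95% from the coefficient and its standard error. Log2 CPM used a prior count of 2. Exact permutation tests ran over the 70 assignments of 4 samples against 4. The tests were tried on simulated data, and no outcome of that trial is reported here. Positions, overlaps and untranslated regions came from GENCODE M21 on GRCm38, and promoters from RefSeq. Plots were drawn with matplotlib 3.10.9.

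The family and all lists were chosen with earlier results of these data known. Genes named are the 7 members, listed genes at an unadjusted p under 0.05, the 2 most abundant of each list by TPM, the most abundant and defining markers, and the 5 genes most like *Fos* or *Jun*. Further genes named after their values were seen are *Zfp36*, *Crem*, *Gad2* and the genes that overlap a member. The values of 2 genes that this rule names are not reported here. Proteins were not analysed here. Alternatives changed the test, normalization, filter, unit, covariates and samples.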

Additional observations from a re-analysis of the deposited data

Results flagged for a closer look

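In groups of 4, a sample was set apart where its gap to the nearest sample exceeded the 95% critical value of Dixon's test as a share of the range of its group. Of 32 groups of values (16 measures in each treatment), 2 held such a sample, where chance gives about 1.6. *Fosl2* of vehicle replicate 3 was at log2 CPM 3.23, against 3.02 to 3.04 in the other vehicle samples (gap over range 0.888). It is the vehicle sample that came nearest to the CNO samples in this gene, and without it the log2 fold change of *Fosl2* was 0.74, against 0.69. *Jun* of CNO replicate 2 was at 5.64, against 5.48 to 5.50 in the other CNO samples (0.894). The same sample had the highest *Junb* level of all 8. Without it the log2 fold change of *Jun* was -0.019.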

How the results depend on the processing

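A call was made for 0 genes with the quasi-likelihood test, for 12 with robust dispersion and the likelihood ratio test, 10 with DESeq2, 4 without a filter on low counts, 3 with a block of replicates 1 and 2 against 3 and 4, and 0 to 2 with each sample left out. Among the AP-1 genes it was made for 0, and for 2, *Fos* and *Fosb*, under each of these 4 alternatives; leaving out single samples gave 0 to 2, the 2 without CNO replicate 1. The log2 fold change of *Fos* then was 1.88 with the likelihood ratio test (adjusted p = 6.25e-20), 1.94 with DESeq2 (6.14e-13), 1.94 without a filter (0.00151), 1.93 with the block of replicates (0.0457), and 1.72 to 2.09 with single samples left out (adjusted p 0.0132 without CNO replicate 1 and up to 0.539 without vehicle replicate 4). For *Fosb* the values were 1.85, 1.89, 1.89 and 1.86 in that order, and 1.64 to 2.06 with single samples left out. A call was made for 0 genes with RLE size factors, with library size only and with the filter of edgeR's filterByExpr. The same held for limma on log2(TPM + 1) or log2(TPM + 0.1) and for the marker index as covariate. In these fits the adjusted p of *Fos* lay between 0.057 (filterByExpr) and 0.175 (limma on log2(TPM + 1)). *Fosb* was at 1.011 in limma on log2(TPM + 1), because 1 TPM added exceeds its vehicle level. *Jun* reversed to -0.032 with library size only, to -0.050 and -0.052 in limma on log2(TPM + 1) and log2(TPM + 0.1), and ranged from -0.019 to 0.041 with single samples left out. *Fosl1*, *Fosl2*, *Junb* and *Jund* kept their sign and missed an adjusted p of 0.05 under all 19 alternatives. The background for the lists also moved. At an unadjusted p under 0.05 there were 716 of 17495 genes with all samples, 318 without CNO replicate 4 and 1683 without CNO replicate 2. Same-numbered CNO and vehicle samples deviated together at correlations of 0.026, -0.030, 0.16 and 0.24, so that the numbers do not pair them. Between CNO and vehicle samples within replicates 1 and 2, or within replicates 3 and 4, the correlations ran from -0.030 to 0.43. From one of these pairs of replicates to the other, they ran from -0.40 to -0.045. With a replicate block 0 genes were called, and the log2 fold change of *Fos* was 1.88 (adjusted p = 0.108).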
